A study of Mus musculus with 6 samples.

Results

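RNA of PS19 mice given WDR5-0103 was compared with RNA of PS19 mice given vehicle, across named coding genes. The comparison rests on 4 of the 6 libraries of the series, 2 in each group, called tau 1 and tau 2 (vehicle) and treated tau 1 and treated tau 2 (WDR5-0103). All 4 came from PFC tissue of mice aged 6 months with the PS19(P301S) genotype, and each was a total lysate of bulk tissue. PS19 mice carry human tau with the P301S change from a transgene driven by the mouse prion promoter. The other 2 libraries are the vehicle controls of a C57BL/6 by C3H cross, which entered the model only to estimate the spread between libraries. The design names 2 mice per group, and the p-values below rest on the spread between the 2 libraries of each of the 3 groups, moderated across genes. Sources used here give no dose, schedule or route for the compound.

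WDR5 is a WD40-repeat subunit shared by the MLL and SET1 complexes, which methylate histone H3 on lysine K4, the mark of active promoters. WDR5-0103 is a small molecule that occupies the pocket of WDR5 where the MLL1 enzyme binds. RNA of cortical tissue is rich in neuronal transcripts, among them those for synaptic scaffolds, ion channels and the cytoskeleton, and it also holds RNA of glia and vessels.

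Members were the symbols listed in all 6 tables, 53640 of them, of which 20694 passed the filter on low counts and 14528 were named coding genes. Predicted Gm symbols and names ending in -ps were kept apart. Named coding genes were split by sequence. A gene at 1 locus with no more than 5% of its 50-base stretches found in another gene was called single-copy (12872 tested), and the remaining 1656 are called near-copy genes. Levels are CPM, counts scaled by TMM to a common library size. Calls were made with edgeR's quasi-likelihood test, where the Benjamini-Hochberg p over all genes tested lay under 0.05.

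Total counts ran from 17690811 in tau 2 to 34774643 in treated tau 1. The treated tables list 494 symbols that the other tables lack, and lack 789 that the others have, so gene list and treatment cannot be told apart. Sex and treatment cannot be told apart either. Xist, which coats and silences the inactive X in female cells, had 186 and 235 CPM in tau and 2.43 and 1.75 CPM in treated tau. Ddx3y, a Y-linked helicase gene, had 0.391 and 0.115 CPM in tau against 108 and 91.2 CPM in treated tau. Of 506 tested X-linked genes 0 were called higher and 2 lower (Eif2s3x and Rps4x), and of 5 tested Y-linked genes 2 were called higher. Of all named coding genes tested 0.475% were called higher and 0.585% lower, so the X-linked counts are near those shares. The controls differed in Xist and Ddx3y too, with Xist at 0.197 CPM in control 1 and 318 CPM in control 2. Ddx3y had 95.2 CPM in control 1 and 0.314 CPM in control 2. That gap enters the spread behind the p-values of sex-linked genes, so a missing call does not mean a small difference. Prnp, whose sequences flank the transgene, had 1684 and 1472 CPM in tau and 1876 and 1594 CPM in treated tau. The library labelled control 1 had a Prnp level like theirs, 1654 CPM, against 876 CPM in control 2. Leaving out either control changed the number of calls alike. The numbers in the file headers differ from those in the titles for tau 1, tau 2 and treated tau 2, and the titles were used. Cortical excitatory markers such as Slc17a7, a glutamate transporter of synaptic vesicles, were present in all 4 libraries (920, 891, 1005 and 992 CPM).

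In all 779 of the 20694 genes were called (3.76%), 639 higher (3.09%) and 140 lower (0.677%) in treated tau. Most were predicted symbols: 599 of 4806 Gm and -ps symbols were called (12.5%), 552 of them higher (11.5%) and 47 lower (0.978%). Other noncoding or unmatched symbols gave 26 calls of 1360 (1.91%), 18 of them higher (1.32%) and 8 lower (0.588%). Named coding genes were called in 154 of 14528 cases (1.06%), 69 higher (0.475%) and 85 lower (0.585%). Among single-copy genes 45 of 12872 were called higher (0.35%) and 19 lower (0.148%). Of the near-copy genes 90 of 1656 were called (5.43%). Among them 24 of 1656 were called higher (1.45%) and 66 lower (3.99%). Library values of the groups did not overlap for any called gene, which also held for 41.3% of all genes tested. The median log2 fold change was -0.006 over all genes and -0.0056 over single-copy genes.

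The calls depended on which genes and libraries entered the fit. A fit to named coding genes alone called 39 of the 154. A fit to single-copy genes alone called 4 of the 64, among them Aldoart2, BC048507 and Ubxn6. The fold changes themselves hardly moved, for example 0.57 for Bsn in both fits, where the adjusted p went from 0.0174 to 0.38. Single-copy genes with an unadjusted edgeR p under 0.05 numbered 951 in the main fit and 942 in the fit to single-copy genes alone. The main adjustment ran over all genes tested, with the 599 called Gm and -ps symbols among them. Its adjusted p-values therefore give no rate of false calls among coding genes alone. Of the 64 single-copy calls, 12 remained without tau 1, 15 without tau 2, 10 without treated tau 1 and 7 without treated tau 2.

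**Figure D1:**
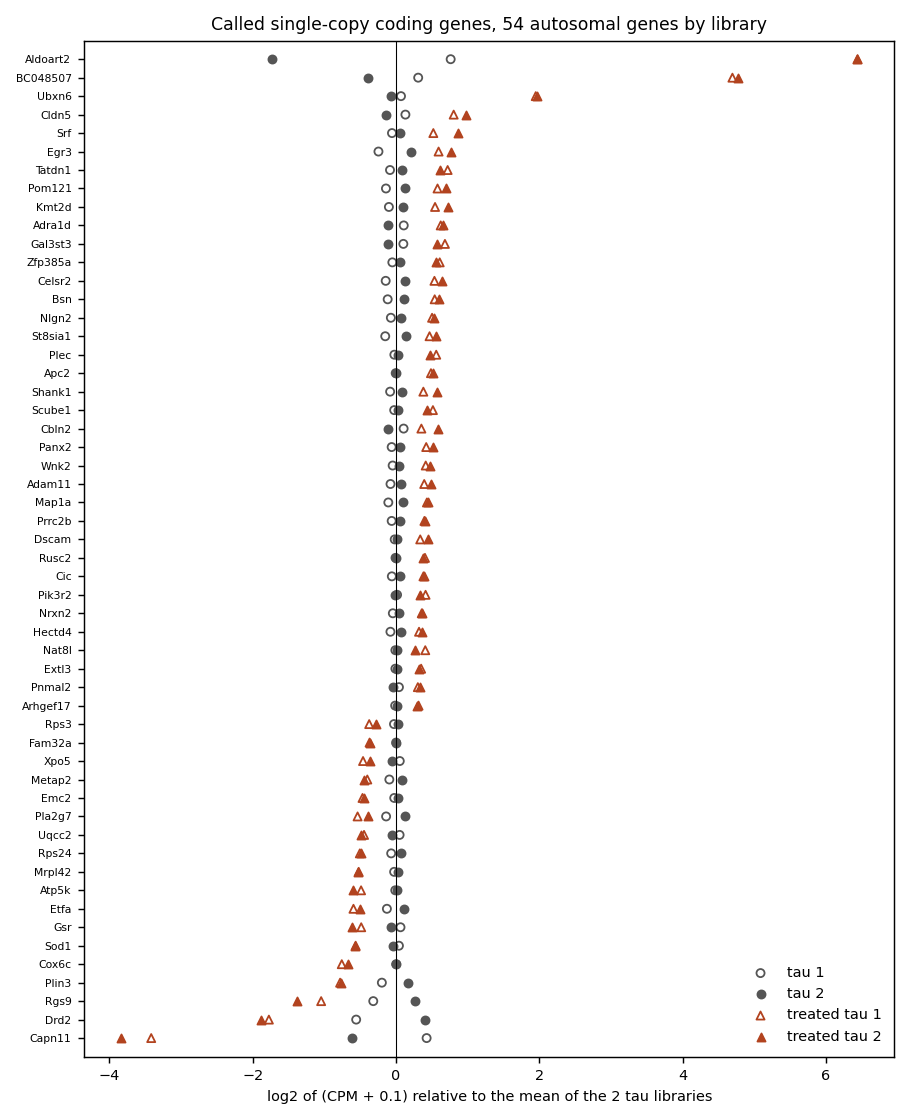
The plot of called single-copy genes by library shows 54 autosomal genes with an average log2 CPM of at least 1; the x axis is the log2 of CPM, after adding 0.1, relative to the mean of the tau libraries. Circles are tau and triangles treated tau, open for library 1 and filled for library 2; most genes that rose did so by less than 1 log2 unit, and the triangles of each gene lie to one side of its circles.

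A few synaptic genes were called higher in treated tau, among them Bsn, Shank1, Nlgn2 and Nrxn2, and most did not pass. Bsn encodes Bassoon, a giant protein that organizes vesicle release sites (chromosome 9, 108096022 to 108190384, mm10, minus strand). It had 417 and 487 CPM in tau 1 and tau 2 and 658 and 683 CPM in treated tau 1 and 2, a log2 fold change of 0.57 (SE 0.11, edgeR adjusted p = 0.0174). Both treated libraries lay above both tau libraries, and the controls, at 589 and 729 CPM, spanned the treated values. Shank1, a scaffold of the excitatory postsynaptic density, had 85.0 and 94.9 CPM in tau and 117 and 134 CPM in treated tau (log2 fold change 0.48, SE 0.09, adjusted p = 0.0199). Its control libraries were both at 149 CPM, above all 4.

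Adhesion genes that join the sides of a synapse gave 2 calls. Nlgn2, the neuroligin of inhibitory synapses, had 93.4 and 103 CPM in tau and 139 and 142 CPM in treated tau (0.52, SE 0.12, adjusted p = 0.0414). Nrxn2, a presynaptic neurexin, had 164 and 174 CPM in tau and 217 and 218 CPM in treated tau (0.36, SE 0.08, adjusted p = 0.0294). For both genes the spread within tau and within treated tau was small beside the gap between them. The controls had 128 and 165 CPM for Nlgn2, a wider spread, and 223 and 240 CPM for Nrxn2. Cbln2, a secreted organizer that binds neurexins, rose as well, from 78.3 and 67.2 CPM to 93 and 109.5 CPM (adjusted p = 0.0441). So did Dscam, a homophilic adhesion molecule (0.40), Celsr2, a seven-pass cadherin (0.59), and Adam11 (0.44).

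Read as lists, these groups had few calls and mostly small positive folds. Of 25 presynaptic genes 1 was called, Bsn, and 20 had positive fold changes (median 0.13). Of 20 postsynaptic genes 1 was called, Shank1, and 18 were positive (median 0.14). Of 15 adhesion genes 2 were called and 11 were positive (median 0.12). Over all genes tested 3.76% were called and 48.7% were positive. For named coding genes these shares were 1.06% and 47.1%, and for single-copy genes 0.497% and 48.4%. Members below the threshold include Syn1, a vesicle phosphoprotein, at 142 and 165 CPM in tau and 205 and 221 CPM in treated tau (0.47, adjusted p = 0.0841). Syt1, the calcium sensor of release, had a fold change of -0.20, and Snap25, a fusion protein, one of 0.04.

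Receptors for fast transmission did not pass, in lists too short to expect a call at the 1.06% of named coding genes called. None of 15 ionotropic glutamate receptor genes was called and 11 were positive (median 0.08). Grin2b, an NMDA receptor subunit, had 917 and 929 CPM in tau and 1163 and 1160 CPM in treated tau (0.33, SE 0.11, adjusted p = 0.23). Its libraries did not overlap, yet the fold did not pass. Grin2a was at 0.32 on that scale (adjusted p = 0.0939) and the kainate receptor gene Grik2 at -0.24. Of 18 GABA genes 10 were positive (median 0.02), with Slc32a1, the vesicular GABA transporter, at 0.31 (adjusted p = 0.233). Of 7 metabotropic glutamate receptor genes 4 were positive (median 0.03).

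Channel genes leaned upward too. Of 23 potassium channel genes 1 was called higher, against 0.475% of named coding genes tested, and 21 were positive (median 0.21). Among those below the threshold, Kcnc1, a channel of fast-firing neurons, had a value of 0.45, and the M-current gene Kcnq3 one of 0.29. Of 20 sodium, calcium and HCN channel genes none was called and 18 were positive (median 0.20). Cacna1a, the P/Q-type calcium channel of terminals, was nearest, at 100 and 108 CPM in tau and 142 and 135 CPM in treated tau (0.41, adjusted p = 0.0567). Panx2, a large-pore channel (0.47), and Wnk2, a kinase that regulates chloride transport (0.44), were called outside these lists.

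Large cytoskeletal and scaffold genes were called higher as well. Map1a, a microtubule-associated protein of mature neurons, had 695 and 802 CPM in tau and 1010 and 1024 CPM in treated tau (0.44, SE 0.08, adjusted p = 0.0132). Plec, a cytolinker, had 227 and 234 CPM in tau and 340 and 319 CPM in treated tau (0.52, adjusted p = 0.00945). Both stood clear of the spread within groups. Each was the 1 call in its list, against 0.475% of named coding genes called higher. Map1a was among 16 tubulin, microtubule and neurofilament genes (median -0.02) and Plec among 14 ankyrins, spectrins and scaffolds (median 0.12). Apc2, a microtubule-binding relative of the tumor suppressor Apc, rose by 0.50 on the log2 scale. Mapt, mouse tau itself, had 574 and 590 CPM in tau and 459 and 497 CPM in treated tau (-0.28, adjusted p = 0.296). None of 19 tau kinase and phosphatase genes was called (median 0.08); Cdk5r2, an activator of Cdk5, was nearest (0.49, adjusted p = 0.0578).

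**Figure D2:**
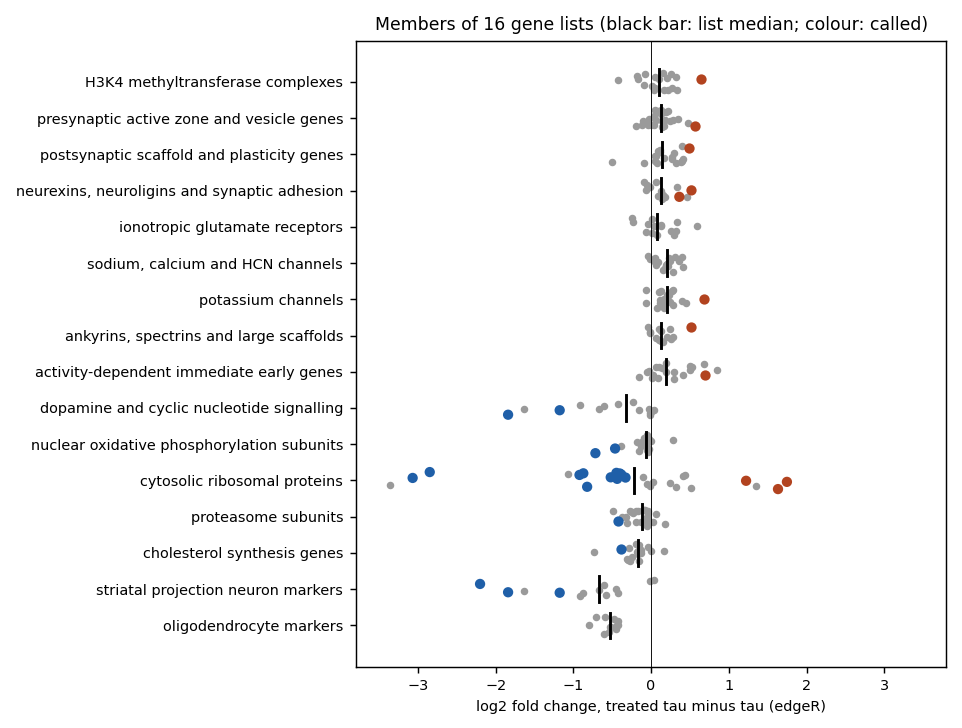
The plot of list members gives the log2 fold change of each tested gene in 16 lists, with called genes coloured red (higher) or blue (lower) and the list median as a black bar. The 4 synaptic lists drawn and the 2 channel lists have medians between 0.08 and 0.21 with 5 distinct called genes, while the striatal and oligodendrocyte lists have medians of -0.67 and -0.52.

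In the machinery that WDR5-0103 addresses, 1 gene passed. Kmt2d encodes an H3K4 methyltransferase of enhancers, also known as MLL4 (chromosome 15, 98831669 to 98871204, minus strand). It had 72.2 and 82.4 CPM in tau and 113 and 128 CPM in treated tau (0.64, SE 0.12, adjusted p = 0.0178), with controls at 107 and 134 CPM. Of 19 tested genes of the H3K4 methyltransferase complexes it was the only call, and 14 were positive (median 0.10). Over named coding genes tested 0.475% were called higher. Wdr5 itself had 31.3 and 29.7 CPM in tau and 30.6 and 32.4 CPM in treated tau (0.04, SE 0.10, adjusted p = 0.942), so the groups overlapped. The core partners Ash2l (-0.08), Dpy30 (0.04) and Rbbp5 (-0.17) stayed near 0 on the log2 scale. The catalytic genes Kmt2a (0.32), Kmt2b (0.20), Setd1a (0.27) and Setd1b (0.33) had positive folds that did not pass.

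Other chromatin lists gave no call, where 1.06% of named coding genes tested were called. At that share such short lists would rarely hold one. Among 12 histone acetyltransferase and coactivator genes 9 were positive (median 0.14), with the acetyltransferase gene Crebbp at 0.31 (adjusted p = 0.164). Among 12 remodelers 10 were positive, with Arid1a, a subunit of the BAF complex, nearest (0.43, adjusted p = 0.0518). Among 11 histone deacetylases 5 were positive (median -0.05). Of 6 H3K4 demethylase genes the only large value was that of Kdm5d, which is Y-linked (7.98, edgeR adjusted p = 0.074). Kdm5d had 0.156 and 0.115 CPM in tau and 35.2 and 37.5 CPM in treated tau. It had 46.3 CPM in control 1 and 0 CPM in control 2, a gap that enters its p-value.

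Srf and Egr3, transcription factors of the activity response, were called higher. Srf encodes serum response factor, which binds CArG boxes in promoters of immediate early genes, its own among them. The Srf promoter is shown because it carries that element. RefSeq places the window, 250 bases before to 50 after the start site, at chr17:46556113-46556412 (GRCm38.p6, minus strand), and the capitals mark 2 CArG boxes found on the printed strand:
Srf: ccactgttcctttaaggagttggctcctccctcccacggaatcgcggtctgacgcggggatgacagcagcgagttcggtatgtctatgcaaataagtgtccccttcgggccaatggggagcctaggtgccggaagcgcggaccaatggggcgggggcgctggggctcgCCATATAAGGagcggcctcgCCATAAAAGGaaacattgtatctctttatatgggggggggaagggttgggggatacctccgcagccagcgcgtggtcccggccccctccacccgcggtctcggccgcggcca
A CArG box, searched on both strands, was present in 1.81% of 27025 promoters in the RefSeq table. It was present in 1.58% of the 10096 matched promoters of tested single-copy genes, in 2 of 29 matched promoters of those called higher (Srf and Ubxn6) and in 0 of 16 called lower.

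Srf had 28.4 and 30.6 CPM in tau and 42.4 and 54.0 CPM in treated tau (0.71, SE 0.13, adjusted p = 0.0152). Egr3, a zinc finger factor induced by synaptic activity, had 45.3 and 62.1 CPM in tau and 81.1 and 91.8 CPM in treated tau (0.70, SE 0.15, adjusted p = 0.0276). For both, the lower treated library was above the higher tau library. Of 21 immediate early genes tested, Egr3 was the 1 call, against 0.475% of named coding genes called higher, and 18 were positive. The groups were apart for 2 of the 21, against 38.7% of named coding genes tested. Arc, a postsynaptic capsid-like protein, had 144 and 370 CPM in tau and 93.2 and 409 CPM in treated tau. Npas4, a neuronal activity factor, had 13.9 and 20.2 CPM in tau and 4.59 and 50.6 CPM in treated tau. In both genes treated tau 2 was the highest and treated tau 1 the lowest of the 4 libraries. The list median was 0.20, and it was -0.54 without treated tau 2 and -0.09 without tau 1, so leaving out either library turned its sign.

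A gene of the ubiquitin system gave a single-copy rise that held under every setting tried. Ubxn6, a cofactor of the unfolding enzyme VCP, had 17.8 and 16.1 CPM in tau and 65.8 and 66.4 CPM in treated tau (1.96, SE 0.12, adjusted p = 1.84e-05). The call held under all 19 alternative settings. Ubxn6 overlaps Chaf1a on the opposite strand, and no source used here gives the strand setting of the counting. Chaf1a (-0.40) was not called.

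Genes that encode ubiquitin itself were looked at after the values were seen. Ubb had 245 and 242 CPM in tau and 378 and 400 CPM in treated tau (0.68, adjusted p = 0.000716), and 2 predicted copies of it moved alike, so that gene and copies summed to 299.6 and 300.7 CPM in tau and 465 and 481 CPM in treated tau. Rps27a, a fusion of ubiquitin with a ribosomal protein, had 4.77 and 3.27 CPM in tau and 9.996 and 8.24 CPM in treated tau (1.15, adjusted p = 0.0221). Ubb and Rps27a are near-copy genes. Subunits of the proteasome, which degrades ubiquitylated proteins, leaned the other way. Of 24, 21 were negative (median -0.12) and 1 was called lower, against 0.585% of named coding genes tested. The call was the near-copy gene Psmc1 (-0.43, edgeR adjusted p = 0.0241). Its copy had a log2 fold change of 2.25, and gene and copy summed had one of -0.09.

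Among the 19 single-copy genes called lower, some encode mitochondrial proteins or redox enzymes; they were grouped here after the values were seen, and no list of redox genes was used. Cox6c, a subunit of cytochrome c oxidase, had 169 and 168 CPM in tau and 99.8 and 106 CPM in treated tau (-0.72, SE 0.09, adjusted p = 0.00177), and its call held in 18 of 19 alternatives. Atp5k, a subunit of the ATP synthase, had 76.5 and 77.6 CPM in tau and 54.9 and 50.9 CPM in treated tau (-0.54, adjusted p = 0.00631). Sod1, the cytosolic superoxide dismutase, had 112 and 106 CPM in tau and 73.9 and 73.1 CPM in treated tau (-0.57, adjusted p = 0.00444). The groups were well apart in all 3. Controls had 164 and 140 CPM for Cox6c, 67.6 and 67.3 CPM for Atp5k, between tau and treated tau, and 110 and 99.6 CPM for Sod1. Gsr, glutathione reductase (-0.55), Uqcc2, an assembly factor of complex III (-0.47), Etfa, an electron transfer flavoprotein (-0.54), and Mrpl42, a mitochondrial ribosomal protein (-0.52), fell too. Near-copy genes of the same kind that fell were Gpx4 (-0.88), Cox5b (-0.81), Prdx1 (-0.50), Ndufs3 (-0.46) and Atp5o (-0.43). Summed with their copies these had log2 fold changes of 0.11, -0.10, -0.14, 0.28 and -0.06 in the same order.

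Of 22 tested nuclear oxidative phosphorylation subunit genes 2 were called lower, Cox6c and Ndufs3, and 20 were negative, with a median of -0.07. Over named coding genes tested 0.585% were called lower and 47.1% were positive. Cox4i1, another oxidase subunit, was at -0.05 and Cox7c at 0.28. Of 18 cholesterol synthesis genes 16 were negative (median -0.17) and 1 was called, the near-copy gene Fdft1, squalene synthase (-0.39). Other single-copy genes that fell were Emc2, of the membrane insertion complex (-0.46), Metap2, which trims initiator methionine (-0.42), Xpo5, the exporter of microRNA precursors (-0.41), Pla2g7, which hydrolyses platelet-activating factor (-0.46), and Plin3, a lipid droplet coat protein (-0.76).

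Capn11, a calpain protease, had the largest fall of a single-copy gene, from 4.69 and 2.24 CPM to 0.234 and 0.149 CPM (-4.18, SE 0.56, adjusted p = 0.00221). It rested on 120 and 39 reads in tau and 8 and 4 in treated tau. Its call held in 18 of 19 alternatives.

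Ribosomal protein genes split in both directions. Of 26 tested, 3 were called higher and 11 lower (median -0.22), and 24 are near-copy genes. Over all near-copy genes tested 1.45% were called higher and 3.99% lower. The 2 single-copy ribosomal protein genes that were called fell modestly: Rps24 from 91.4 and 100 CPM to 67.4 and 68.0 CPM (-0.50, adjusted p = 0.00906) and Rps3 from 234 and 243 CPM to 184 and 196 CPM (-0.33, adjusted p = 0.041). Near-copy members moved further. Rps28 went from 23.2 and 24.9 CPM to 2.81 and 2.91 CPM (-3.07), while Rpl38 went from 2.70 and 1.78 CPM to 9.03 and 6.34 CPM (1.75). With copies summed the log2 fold change was -0.78 for Rps28 and 0.0045 for Rpl38. The Rpl38 family summed to 116 and 114 CPM in tau, so its sum could hardly show the rise of the gene. Rps2 had a fold change of -3.37 that was not called (adjusted p = 0.053), with tau 1 at 28.2 CPM and tau 2 at 3.09 CPM.

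Of 13 tested markers of striatal projection neurons 3 were called lower in treated tau, against 0.585% of named coding genes tested. Drd2, the D2 dopamine receptor, had 2.58 and 5.10 CPM in tau and 1.05 and 0.969 CPM in treated tau (-1.84, adjusted p = 0.0308). Rgs9, a regulator of G protein signalling enriched in striatum, had 11.1 and 16.7 CPM in tau and 6.69 and 5.26 CPM in treated tau (-1.18, adjusted p = 0.0469). Gpr6, an orphan receptor, fell by 2.20 on the log2 scale (adjusted p = 0.0315). Of the 13 markers 12 were negative (median -0.67, and -0.32 without tau 2). Their summed level was 406 CPM in tau 1, 623 in tau 2 and 386 and 399 in treated tau, so tau 2 stood apart. Without tau 2 none of the 3 was called by edgeR (adjusted p of 0.16 for Drd2, 0.18 for Gpr6 and 0.26 for Rgs9). In bulk tissue, fewer cells of a type and less RNA per cell cannot be told apart.

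Oligodendrocyte markers were negative in 12 of 12 cases (median -0.52) with 0 calls, where 1.06% of named coding genes tested were called. Mbp, a myelin protein gene, had 903 and 2003 CPM in tau and 975 and 1042 CPM in treated tau. The summed level of the list was 2633 CPM in tau 1, 5945 in tau 2, 2772 in treated tau 1 and 3087 in treated tau 2. Without tau 2 the median was 0.16, so the sign rested on that library. Excitatory cortical neuron markers summed to 1993 and 1894 CPM in tau and 2154 and 2143 CPM in treated tau (12 of 13 positive, median 0.13, 0 calls). Those values stand beside the called synaptic genes; their part in those calls was not tested.

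Glial lists gave no call, where 1.06% of named coding genes tested were called. Each list is too short for the lack of a call to be a result about its genes. Astrocyte markers had a median of -0.05 and homeostatic microglia markers one of -0.16, each with 10 of 12 negative and 0 calls. Disease-associated microglia and complement genes had a median of -0.09 over 14 tested, and reactive astrocyte genes -0.14 over 10, again with 0 calls; Gfap was at 66.1 and 112 CPM in tau and 56.6 and 62.9 CPM in treated tau (adjusted p = 0.264). Cldn5, a tight junction gene of brain endothelium, was called higher, from 12.5 and 10.3 CPM to 20.02 and 22.7 CPM (0.88, adjusted p = 0.0286). The other 15 endothelial and mural markers were not called, among them Pecam1 (-0.08) and Flt1 (0.12). Of 15 glucocorticoid-induced genes 12 were negative (median -0.17) with 0 calls, and of 17 interferon-induced genes 8 were (median 0.02).

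Called single-copy genes differed in length and base composition. The median length of the longest transcript was 5281 bases for those higher, 3038 for those lower and 3572.5 for all tested. Median GC content was 58% for those higher, 48.4% for those lower and 50% for all. The quintile of genes richest in GC held 28 of the 45 higher calls and 1 of the 19 lower ones, and the quintile with the longest transcripts held 21 higher and 0 lower. Positive fold changes made up 62.2% of the GC-richest quintile and 59% of the longest, against 48.4% of all single-copy genes. These shares stand beside those of the synaptic and channel lists above. In the GC-richest quintile the median deviation from the mean of all libraries was -0.047 and -0.039 in tau, against 0.036 and 0.011 with treatment. With offsets for GC content and length in each library, 61 single-copy genes were called higher and 41 lower, a more even split than 45 and 19. Bsn (0.55, adjusted p = 0.0029), Shank1, Nlgn2, Nrxn2, Kmt2d, Map1a, Srf and Egr3 kept their calls with these offsets, while Rgs9 (adjusted p = 0.051) and Mrpl42 (adjusted p = 0.063) lost theirs.

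**Figure D3:**
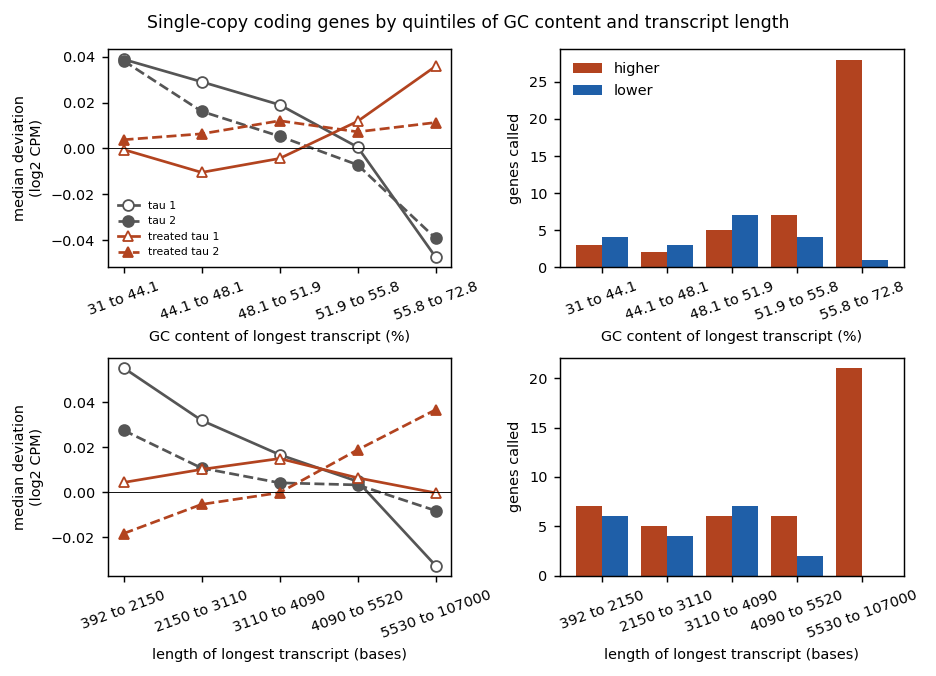
The plots by quintiles of GC content (top) and transcript length (bottom) give, for single-copy genes, the median deviation of each tau and treated tau library from the mean of all 6 libraries in log2 CPM (left) and the number of genes called higher or lower (right). Tau medians fall and treated tau 1 medians rise with GC content, to -0.047 in tau 1 and 0.036 in treated tau 1 in the richest quintile, which holds 28 of the 45 higher calls.

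Called near-copy genes were set beside their copies. Of 90 called, 77 share at least 100 of their 50-base stretches with another listed gene. Of the 58 lower genes among them, 46 had copies that summed to a higher level in treated tau. Of all Gm and -ps symbols tested, 54.2% had positive fold changes and 11.5% were called higher. Families of near-copy genes that were not called were not summed, so this count may not be particular to genes that fell. For the 58 lower genes the median log2 fold change was -0.64 for the gene, 0.43 for the copies and -0.15 for gene and copies summed. By construction the fold of a sum lies between those of gene and copies. Rpl35, a ribosomal protein gene, is an example, with 5.71 and 5.39 CPM in tau and 0.877 and 0.634 CPM in treated tau. Gene and 3 copies summed to 47.0 and 47.0 CPM in tau and 47.7 and 46.9 CPM in treated tau. The family sums of the groups overlapped, where the gene fell by 2.88 on the log2 scale. Tuba1c, a tubulin, fell by 2.47 on that scale. It held 5.51 and 2.98 CPM of a family sum of 478 and 501 CPM in tau. That sum (log2 fold change 0.03) therefore could not show the fall of the gene. For the 19 higher genes the medians were 1.22 for the gene, 0.04 for the copies and 0.23 for the sum.

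**Figure D4:**
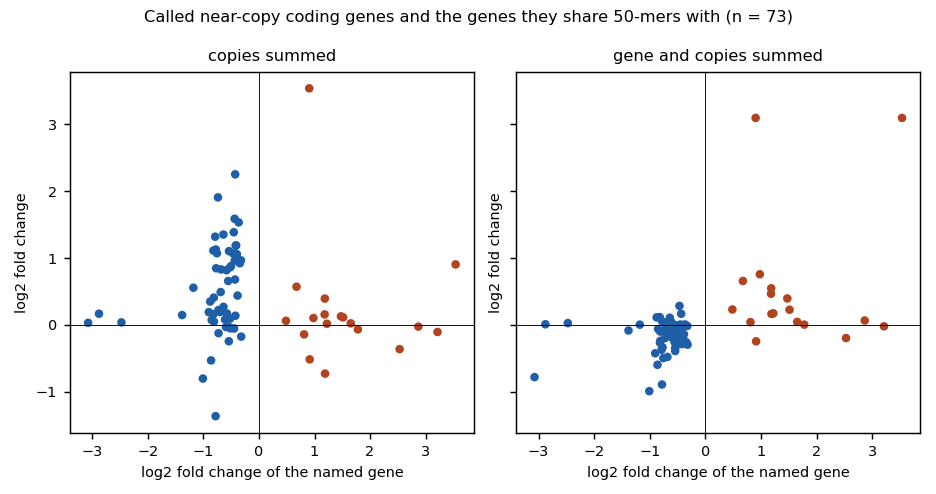
The plots of 73 called near-copy genes give the log2 fold change of the named gene on the x axis against that of its copies summed (left) and of gene and copies summed (right). Blue points fell and red points rose. On the right most points lie closer to 0 than the gene itself, with medians of -0.15 and 0.23. The fold of a sum lies between those of gene and copies by construction, and the genes were plotted because they were called. Their shift toward 0 is therefore no separate result. Myl12a and Myl12b, each other's copy, stand out at 3.10.

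One 50-base stretch of Gapdh shows how widely such sequence is spread. It covers coding bases 493 to 542 of the glycolytic gene and is found exactly in 83 other genes, 82 of them Gm or -ps symbols; it is shown because Gapdh was called:
Gapdh: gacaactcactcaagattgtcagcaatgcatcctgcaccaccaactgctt
Gapdh was counted at only 13.7 and 10.8 CPM in tau and at 26.9 and 28.9 CPM in treated tau (1.17, adjusted p = 0.00332). Reads from such a stretch cannot be assigned to 1 gene, so the level of Gapdh is uncertain. Ppia, cyclophilin A, is another near-copy gene that was called higher, from 10.99 and 12.95 CPM to 35.04 and 33.4 CPM.

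Several of the largest rises fell on genes that overlap a symbol listed in the control and tau tables but not in the treated ones. Of 144 tested named genes with such an overlap 7 were called (4.86%), against 147 of the other 14384 (1.02%). Jakmip1, a microtubule-binding protein that associates with GABA-B receptors, had 13.1 and 13.1 CPM in tau and 128 and 126 CPM in treated tau (3.28, SE 0.10, adjusted p = 2.24e-07). The symbol Gm1043, which lies over it, held 14.7 and 18.2 CPM in tau and is not listed in the treated tables. Pick1, a PDZ protein that binds AMPA receptors, had 10.95 and 11 CPM in tau and 35.5 and 35.6 CPM in treated tau (1.69) and overlaps Gm49486. Nudt8 (5.91, Gm49405) and Nudt3 (0.62, RPS10-NUDT3) are further cases that rose, as is Dscam with 3 clone-named symbols. Mrpl48 and Zfp983 fell. Reads over both symbols of a pair cannot be told apart, so these folds do not separate the compound from the gene list. The reverse overlap could hardly be checked. Of the 494 symbols that only the treated libraries list, 8 were found in GENCODE M21, against 767 of the 789 that they lack. Those 8 overlap 2 tested named genes, of which 0 were called. For the remaining symbols, overlap with genes that fell, such as Rps28, Capn11 and Ndor1, was not tested.

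Other large rises have no such overlap. Myl12b, a myosin light chain gene, had 16.3 and 13.8 CPM in tau and 176 and 174 CPM in treated tau (3.53, adjusted p = 2.32e-07), and with its copy Myl12a the pair summed to 22.5 and 21.5 CPM in tau and 189 and 187 CPM in treated tau. Elp6, of the Elongator complex, had 11.7 and 7.45 CPM in tau and 58.9 and 51.5 CPM in treated tau (2.50). Both are near-copy genes, and the groups were far apart in each.

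Copies with 1 or 2 exons of genes with many exons were called higher without their parents. Of the 69 named coding genes called higher 11 had a single exon (15.9%), against 2.48% of those tested and 0 of 85 called lower. The 9 copy and parent pairs described here were chosen after the values were seen. Aldoart2, an aldolase A retrogene on chromosome 12 (55565239 to 55566896, plus strand), had 0.782 and 0.0573 CPM in tau and 45.1 and 44.8 CPM in treated tau (6.52, SE 0.32, adjusted p = 5.19e-06). Its parent Aldoa, a glycolytic enzyme gene, had 1560 and 1485 CPM in tau and 1316 and 1373 CPM in treated tau (-0.18, adjusted p = 0.349). The groups were far apart for the copy, and for the parent treated tau lay slightly below tau.

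The 60 coding bases ending at base 360 of parent and copies are shown because they let a reader see how close the sequences are; capitals mark bases that differ from the parent:
Aldoa: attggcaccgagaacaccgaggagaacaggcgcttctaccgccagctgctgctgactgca
Aldoart2: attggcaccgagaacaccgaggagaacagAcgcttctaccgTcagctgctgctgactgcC
Aldoart1: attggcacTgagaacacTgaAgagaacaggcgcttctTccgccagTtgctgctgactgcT
Cs: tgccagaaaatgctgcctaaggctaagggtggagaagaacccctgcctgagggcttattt
Csl: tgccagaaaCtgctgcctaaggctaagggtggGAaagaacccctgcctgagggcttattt
Over the whole coding sequence Aldoart2 was identical to Aldoa at 91.7% of aligned bases, with a longest identical run of 49 bases. Csl, a copy of the citrate synthase gene Cs, was identical to it at 92.7%.

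Csl had 1.64 and 2.06 CPM in tau and 16.1 and 18.2 CPM in treated tau (3.23, adjusted p = 2.95e-05), while Cs had 271 and 275 CPM in tau and 250 and 257 CPM in treated tau. Aldoart1, a second aldolase copy, had 29.3 and 25.8 CPM in tau and 56.6 and 60.4 CPM in treated tau (1.08). In every pair the treated libraries lay above the tau libraries for the copy, as for every gene called higher. Since the pairs were chosen after the values were seen, this is no separate support. The smaller copies G6pd2 (2.85), Cdc34b (2.61), Rasl2-9 (2.49), Acot10 (0.91) and Prps1l3 (0.82) rose as well. D1Pas1, a copy of the X-linked helicase gene Ddx3x, had no count in tau and 0.731 and 0.671 CPM in treated tau, at least 4.85-fold higher against a floor of 3 counts per library. The 8 parents had fold changes from -0.53 (Acot9) to -0.02 (G6pdx) and none was called. Ddx3x was nearest (-0.37, edgeR adjusted p = 0.0501). Acot9, G6pdx, Ddx3x and Prps1 are X-linked, and sex and treatment cannot be told apart here.

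**Figure D5:**
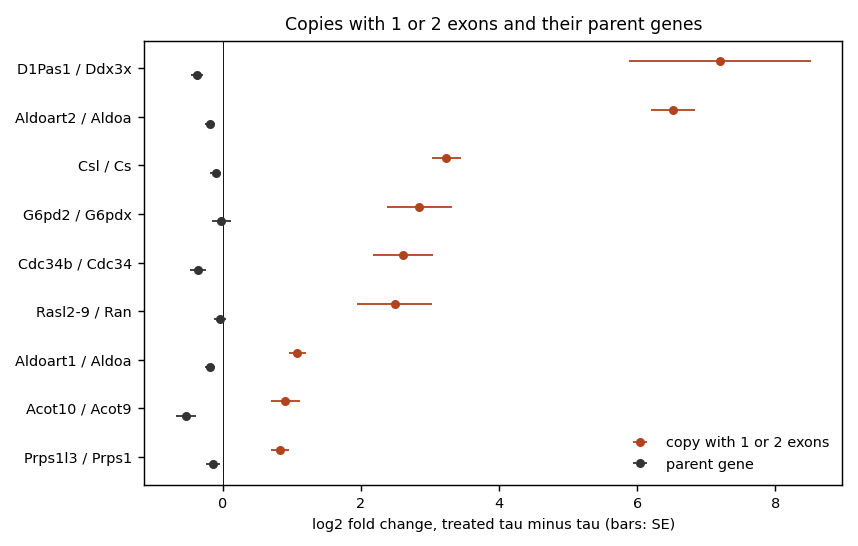
The plot of 9 copies and their parents gives the log2 fold change of treated tau minus tau with its standard error. Copies (red), all called higher and chosen after the values were seen, lie between 0.82 and 7.19, parents (black) between -0.53 and -0.02.

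Of the 154 called named coding genes 34 belong to a list used here and 120 to none. Among the latter, single-copy genes that rose were Adra1d, an alpha-1 adrenergic receptor (0.63), Pom121, a nucleoporin (0.66), Gal3st3, a sulfotransferase (0.62), St8sia1, which makes ganglioside GD3 (0.52), Nat8l, which makes N-acetylaspartate (0.34), Cic, a transcriptional repressor (0.39), Pik3r2, a regulatory subunit of PI3 kinase (0.38), and Hectd4, of the HECT ligase family (0.34). Their tau and treated tau libraries did not overlap, as for every called gene. Hsf2bp, known from meiotic recombination, had no count in tau and 0.643 and 0.708 CPM in treated tau, at least 4.67-fold higher against the same floor. Vmn2r57, a vomeronasal receptor gene with near-copies, had 2.03 and 2.58 CPM in tau and no count in treated tau, at least 23.1-fold lower.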

How the data were processed

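Per the labels' protocols, stranded total RNA libraries were prepared after ribosomal depletion, with Cutadapt for trimming and TopHat2 for alignment. The submitters' processing notes also name SAMtools, featureCounts, edgeR and build mm10; no source used here gives versions, the strand setting or the handling of multiply aligned reads. The authors deposited raw counts per gene symbol, 1 table per library. Low counts of the 53640 shared symbols were removed with filterByExpr at a minimum of 10. TMM scaling and a quasi-likelihood model without covariates followed over all 6 libraries, in edgeR 4.0.16 under R 4.3.3 (glmQLFit, then glmQLFTest, legacy off), with two-sided tests on 3 residual degrees of freedom. The floor of 3 counts reflects only the error of counting. Gene classes, positions, lengths and GC content came from GENCODE M21 on mm10, which matched 20557 tested symbols. Copies were found by exact 50-base matches.

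Named genes were, of called named coding genes without overlap and at 1 or more in average log2 CPM, the 15 of largest fold per direction, likewise for single-copy genes, plus up to 4 called members per list, or the 2 of smallest p. Further genes were chosen after their values were seen. Some genes that the rule names are not reported here. Members and the 48 gene lists were chosen with earlier results of these data known. Alternatives were DESeq2 1.42.0, limma-voom (limma 3.58.1), other filters, scaling, gene sets, offsets (mgcv 1.9.3), equal depth, a replicate block and leaving out libraries. Scripts were tested on simulated data.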

Additional observations from a re-analysis of the deposited data

How the results depend on the processing

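Counts of called genes over 19 alternatives kept within 1.5 times of the main ones except as follows. The 779 calls became 39 with named coding genes only and 4 with single-copy coding genes only, and 355 to 840 when 1 library was left out. The 69 named coding genes called higher became 114 with DESeq2, 41 with no filter on low counts, 113 with only the tau and treated tau libraries, 19 with named coding genes only, 4 with single-copy genes only, and 19 to 120 with 1 library left out. The 85 called lower became 44 with no filter, 20 with named coding genes only, 0 with single-copy genes only (edgeR; 942 of 12872 genes had an unadjusted p under 0.05), 132 with GC content and length offsets, and 20 to 100 with 1 library left out. The 45 single-copy genes called higher became 89 with DESeq2, 19 with no filter, 28 with the minimum count of 50, 87 with only the tau and treated tau libraries, 5 and 4 with the restricted gene sets, and 5 to 94 with 1 library left out. The 19 called lower became 33 with DESeq2, 7 with no filter, 4 and 0 with the restricted sets, 41 with the offsets, and 3 to 27 with 1 library left out. The cause was not tested, except that fewer samples or genes entered the leave-one-out and restricted fits. In the restricted fits the p-values were also adjusted over coding genes alone, without the Gm and -ps symbols. Where 1 library of a group remained, it was assumed to vary like the other groups. No named gene reversed direction while called. With the replicate block the counts were 709 in all, 74 and 77 for named coding genes and 52 and 18 for single-copy genes; 129 of the 154 named calls remained. The titles' numbers do not pair the samples: deviations of same-numbered tau and treated tau libraries correlated at 0.0733, and those of the other pairs of groups at 0.0101 and -0.00799 (across genes).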
